A study of Mus musculus with 6 samples.

Results

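The genes described here are 10 mouse genes of deoxynucleotide supply: the ribonucleotide reductase genes Rrm1, Rrm2 and Rrm2b, the thymidylate genes Tyms, Dut, Dctd and Dtymk, the salvage kinase genes Tk1 and Dck, and Samhd1. They were taken as every probe set whose annotation names exactly 1 gene and that gene is on the list, which gave 29 of the 34945 probe sets with 1 gene symbol and 10 of 18193 named genes. All 10 genes were measured, with 1 to 5 probe sets each. Expression was measured on Affymetrix arrays in V720, a mouse cell line from breast cancer whose tissue is given as mammary epithelium, grown in DMEM with fetal calf serum. One group received vehicle for 24 h and the other received the CDK4/6 inhibitor PD0332991, also known as palbociclib, at 1 µM for 24 h. Each group held 3 arrays, described by the series as biological triplicates, and the labels give no genetic change that separates the groups.

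DNA replication needs a supply of all the deoxyribonucleoside triphosphates, and cells make most of them by reducing ribonucleotides with ribonucleotide reductase. Thymidine nucleotides need further steps, since thymidylate is made from deoxyuridylate, and a salvage route phosphorylates nucleosides taken up or recycled. Several of these enzymes are made mainly in S phase, under control of E2F factors that the retinoblastoma protein holds back until CDK4 and CDK6 phosphorylate it, while SAMHD1 works the other way and breaks deoxynucleoside triphosphates down.

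Of the 10 genes, 7 fell with PD0332991 and 2 rose, and Samhd1 did not pass the test. Over all genes tested, 11.2% were called lower and 9.81% higher, 21% in either direction (limma, Benjamini-Hochberg adjusted p under 0.05). The falls were largest in Tk1 and Rrm2, which dropped 2.76-fold and 2.69-fold, followed by Dut (2.11-fold), Rrm1 (1.87-fold), Tyms (1.70-fold), Dtymk (1.43-fold) and Dck (1.41-fold). Dctd rose 1.22-fold and Rrm2b rose 1.13-fold. At least 2-fold falls were called in 3 of the 10 genes and in 1.15% of all genes. The median log2 fold change was -0.64 over the 10 genes and 0.0048 over all genes. In each of the 10 genes the 3 treated arrays lay wholly outside the range of the 3 vehicle arrays, 8 below and 2 above, where 19.6% of all genes lay below in this way and 19.3% above. Of the 29 probe sets, 16 were called lower and 3 higher, where 9.7% and 7.87% of all probe sets with 1 symbol were. Of the same 29, 19 lay below the vehicle range and 5 above it, where 19.1% and 17.6% of all did. With 1 array left out, 0 or 1 of the 29 was called higher (limma), where calls over all genes numbered 2495 to 2687 in place of 3820. In each of these settings the 2 genes that rose were still higher at an unadjusted p under 0.05 (limma). A fold change here is PD0332991 over vehicle on the log2(intensity + 16) scale, taken from the gene's probe set with the highest mean, and it understates the change of dim genes.

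The arrays had median intensities of 69.6 to 72.7. The SD of log2 differences between arrays was 0.18 to 0.20 within a group and 0.30 to 0.32 between groups. Of 13 epithelial markers, 9 were above the median level of all genes, with summed intensities of 61888 to 63747 on vehicle and 64620 to 66624 on PD0332991 arrays. None of the fibroblast, endothelial or adipocyte markers was above that median, and 1 of 10 leukocyte markers was. The number of arrays limits the precision. RNA came from whole cultures, so that fewer cells in S phase and less of a transcript in each cell cannot be told apart.

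**Figure D1:**
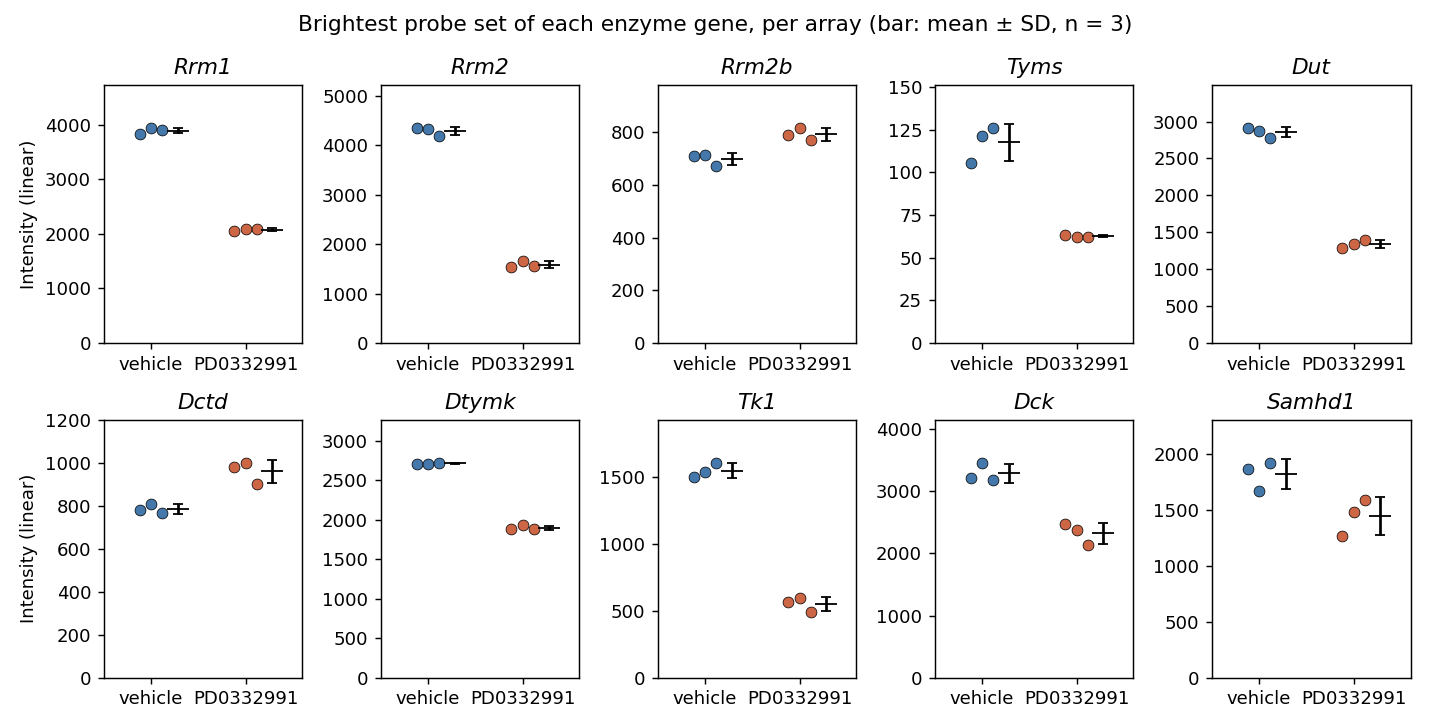
Intensity (linear scale, axes from 0) of the brightest probe set of each of the 10 genes on each array, vehicle in blue and PD0332991 in orange, with the mean ± SD (n = 3) beside the points. The treated arrays lie below all vehicle arrays in 8 genes and above them in Rrm2b and Dctd.

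Ribonucleotide reductase changed in its large subunit and its S-phase small subunit in one direction and in its alternative small subunit in the other. Rrm1, on chromosome 7, encodes the large subunit, which holds the catalytic and regulatory sites. Its brightest probe set (1415878_at) had intensities of 3842, 3946 and 3906 on the vehicle arrays and 2046, 2092 and 2097 on the PD0332991 arrays. The groups were far apart relative to their spread, 3898 ± 52.5 against 2078 ± 28.4 (SD, n = 3 each), a log2 fold change of -0.90 (SE 0.03, limma adjusted p = 5.22e-05). A second Rrm1 probe set fell 2.03-fold, and the third had an intensity of 6.48 ± 3.34 with vehicle (SD, n = 3), near the bottom of the scale, where its groups overlapped.

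Rrm2, on chromosome 12, encodes the small subunit that carries the radical needed for the reaction and is made in S phase. On the brightest probe set (1434437_x_at) it read 4355, 4332 and 4189 with vehicle and 1539, 1662 and 1549 with PD0332991. The highest treated array was far below the lowest vehicle array, and the treated mean was 36.9% of the vehicle mean (log2 fold change -1.43, SE 0.04, limma adjusted p = 4.5e-05). Of all 18193 genes, 0.572% had a lower log2 fold change than Rrm2. Its 3 probe sets all fell, 2.61-fold, 2.69-fold and 3.34-fold. The largest of these falls was on the dimmest probe set (1416120_at), with intensities of 900.25, 918 and 974.5 against 262, 262 and 278. The brightest has an ID ending in _x_at, which Affymetrix gives where probes may also match unrelated transcripts, and the other 2 have IDs without such an ending.

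Rrm2b, on chromosome 15, encodes the alternative small subunit, which is induced by p53 and serves DNA repair and mitochondrial DNA outside S phase. Its brightest probe set (1433773_at) read 708, 713 and 672 with vehicle and 789, 816 and 769.7 with PD0332991. The treated arrays were all higher, by a small amount (log2 fold change 0.18, SE 0.04, 95% confidence interval 0.07 to 0.28, limma adjusted p = 0.0346). All 4 probe sets were higher on every treated array than on any vehicle array, with log2 fold changes of 0.18, 0.21, 0.24 and 0.35, and 2 of them passed the test. The gene no longer passed with any single array removed (adjusted p = 0.0592 to 0.103), and with each array centred on its spike-in control probe sets, which gave a log2 fold change of 0.052 where the median of all genes moved to -0.12.

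The drop of Rrm2 exceeded that of Rrm1 within the same arrays. The log2 difference Rrm2 minus Rrm1 was 0.53 lower with PD0332991, a change of -0.53 with no overlap of the groups, whose SDs were 0.040 and 0.054 (n = 3 each). With the mean of each gene's probe sets, which takes in the Rrm1 probe set near the bottom of the scale, the change was -0.82. The difference between Rrm2 and Rrm2b changed by -1.61 (SD 0.018 and 0.032, n = 3 each), also without overlap. Such a within-array difference does not depend on how arrays are scaled to each other, and it shows unequal change only.

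Promoter sequence is shown for the 2 reductase genes that fell together and, for comparison, for Dck, a salvage gene whose fall was smaller. Each run is the 150 bases before the start site in RefSeq (GRCm38.p6), 5′ to 3′ on the strand of the gene. Capitals mark letters matching CCAAT, the box bound by NF-Y, or TTNNCGC, a relaxed form of the E2F consensus TTTNNCGC, on either strand.
Rrm1, chr7:102441545-102441694, plus strand: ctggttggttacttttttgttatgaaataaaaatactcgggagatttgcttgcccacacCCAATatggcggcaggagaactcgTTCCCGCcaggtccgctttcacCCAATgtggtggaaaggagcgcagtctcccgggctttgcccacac
Rrm2, chr12:24708104-24708253, plus strand: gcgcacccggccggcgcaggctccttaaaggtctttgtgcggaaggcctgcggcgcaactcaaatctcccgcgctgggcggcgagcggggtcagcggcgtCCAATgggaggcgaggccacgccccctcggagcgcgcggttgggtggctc
Dck, chr5:88764863-88765012, plus strand: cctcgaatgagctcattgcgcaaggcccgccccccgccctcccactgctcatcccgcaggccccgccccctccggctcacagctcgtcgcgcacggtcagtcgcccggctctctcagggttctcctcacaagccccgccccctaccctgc
Rrm1 held CCAAT beginning 91 and 45 bases before the start and TTNNCGC beginning 67 bases before it, Rrm2 held CCAAT beginning 50 bases before its start, and Dck held neither.

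The RefSeq promoter table had an entry for 9 of the 10 genes, all but Rrm2b. CCAAT was found in 4 of the 9 (Rrm1, Rrm2, Dtymk and Dctd), and in 24.5% of all 32851 promoter windows of this length. TTNNCGC was found in 3 (Rrm1, Tk1 and Dtymk), against 11.7% of windows, and the stricter TTTNNCGC in 0 of 9, against 2.75%. The letters TTTGAA, the cell cycle homology region of many mitotic genes, were in 0 of 9 (9.07% of windows), and GGGCGG, the GC box, was in 6 (28.6%). Each was searched on both strands, and TTTNNCGC contains TTNNCGC. A gene counted if any of its windows matched, as for Dctd with several, while the share over all windows counts each window on its own. Dctd, which rose, also holds CCAAT and GGGCGG in windows of its later start sites, so that these letters did not separate the genes that fell from the one that rose. Nor did CCAAT and TTNNCGC follow the size of the fall in every gene. Dtymk, which fell about as much as Dck, held both, and Dut and Tyms, which fell more, held neither.

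In the thymidylate route, Dut, Tyms and Dtymk fell. Dctd, whose enzyme makes deoxyuridylate from another source than the Dut enzyme does, rose, a call lost in 6 of 17 alternative settings. Dut, on chromosome 2, encodes the enzyme that splits dUTP to deoxyuridylate and so keeps uracil out of DNA. Dut intensities (1419270_a_at, the brightest) were 2914, 2871 and 2783 with vehicle and 1289.5, 1341 and 1398 with PD0332991. The treated arrays held 47.0% of the vehicle mean (log2 fold change -1.08, SE 0.04, limma adjusted p = 6.98e-05). A dimmer Dut probe set fell 1.61-fold, from 98.8 ± 5.67 to 55.1 ± 2.87 (SD, n = 3 each).

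Tyms, on chromosome 5, encodes thymidylate synthase, which methylates deoxyuridylate with a folate cofactor. The brightest probe set naming Tyms alone (1442192_at) was dim, with 106, 121 and 126 on vehicle and 63.5, 62.3 and 62.2 on PD0332991 arrays. The treated arrays were close together and all lower (log2 fold change -0.76, SE 0.06, limma adjusted p = 0.00107). A second probe set fell alike, by 0.77 on the log2 scale, and the other 2 had vehicle means of 19.5 and 5.44 with overlapping groups. Because these signals are low, the fold depends on the constant added: the log2 fold change was -0.90 with a pseudocount of 1 and -0.52 with 64. A much brighter probe set annotated to both Tyms and the pseudogene Tyms-ps, and therefore outside the rule, read 1949, 1848 and 1904 with vehicle and 861, 874 and 839.6 with PD0332991. Its log2 fold change was -1.13 (SE 0.03, limma adjusted p = 3.52e-05 over the 932 probe sets with several symbols), and it cannot be assigned to either gene.

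Dtymk, on chromosome 1, encodes thymidylate kinase, which both the new synthesis and the salvage route pass through. Intensities of its brightest probe set (1438096_a_at) were 2704, 2708 and 2720.4 with vehicle and 1878, 1927 and 1880.2 with PD0332991. The spread between arrays was small, 2711 ± 8.70 against 1895 ± 27.4 (SD, n = 3 each), with a log2 fold change of -0.51 (SE 0.03, limma adjusted p = 0.000319). The other 2 probe sets fell 1.34-fold and 1.37-fold.

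Dctd, on chromosome 8, encodes deoxycytidylate deaminase, which supplies deoxyuridylate from deoxycytidylate. Its single probe set (1454659_at) read 779, 811 and 766 with vehicle and 983, 1002 and 902 with PD0332991. All treated arrays were higher (log2 fold change 0.29, SE 0.05, 95% confidence interval 0.16 to 0.42, limma adjusted p = 0.0154). The call was lost without vehicle replicate 1, vehicle replicate 3, PD0332991 replicate 1 or PD0332991 replicate 2 (adjusted p = 0.0518 to 0.0567), and with spike-in centring (log2 fold change 0.16, adjusted p = 0.42).

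Within arrays, Tyms fell less than Dut on its dim probe set, the difference of log2 values changing by 0.32, and more than Dtymk, by -0.25. Both depend on the low Tyms signal. The first was 0.19 with a pseudocount of 1 (exact permutation p = 0.2, two-sided) and 0.53 with 64. The second became -0.38 with a pseudocount of 1 and -0.017 with 64, and with the mean of each gene's probe sets it was 0.00030.

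**Figure D2:**
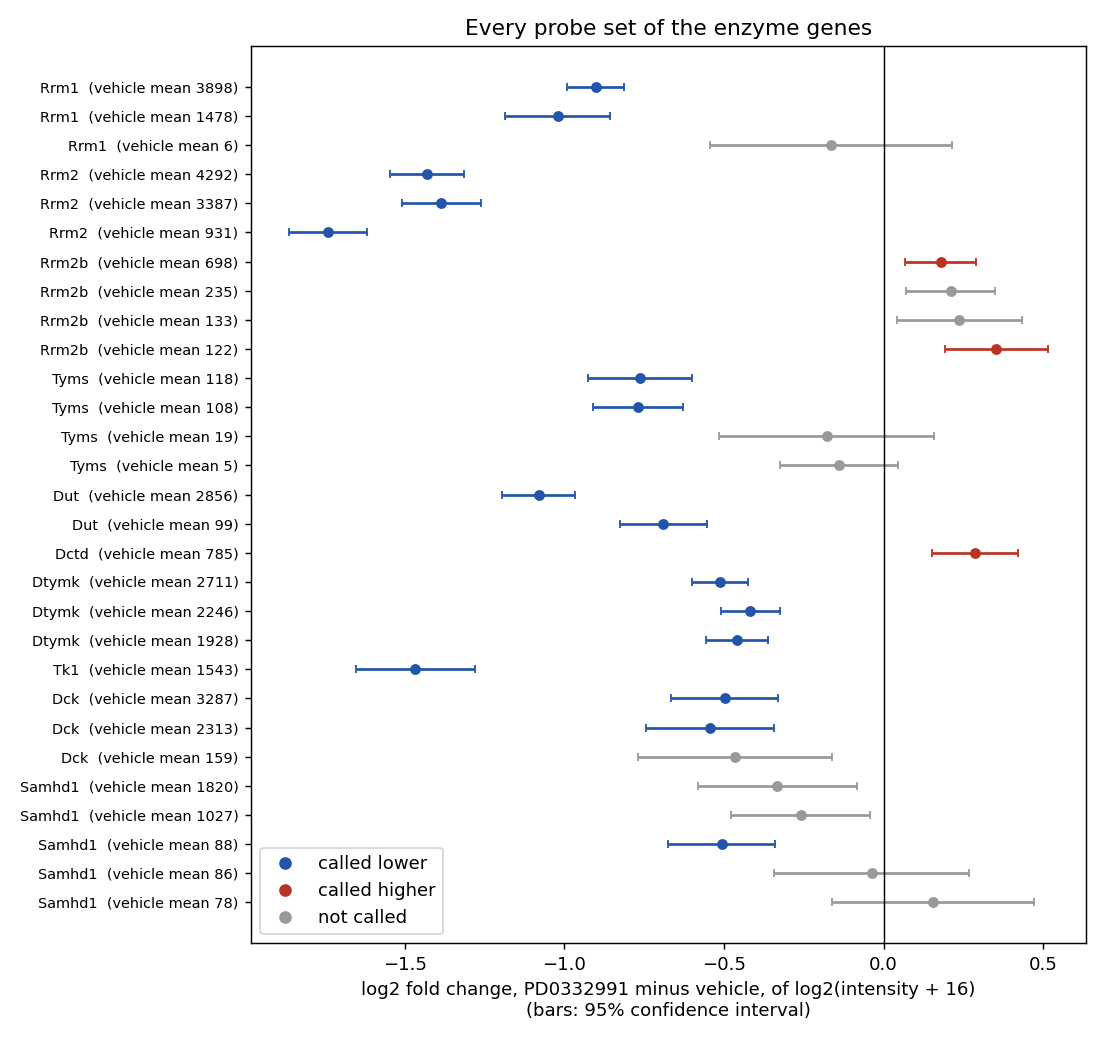
Log2 fold change (PD0332991 minus vehicle) of all 29 probe sets with 95% confidence intervals, ordered by gene and then by vehicle mean, blue for called lower, red for called higher and grey for not called. All 3 Rrm2 and all 3 Dtymk probe sets were called lower, while the 5 of Samhd1 range from -0.51 to 0.16.

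The salvage kinases both fell, by different amounts. Tk1, on chromosome 11, encodes the cytosolic thymidine kinase, whose activity rises in S phase and which is used as a serum and tissue marker of proliferation. Its single probe set (1416258_at) read 1494, 1531 and 1604 with vehicle and 564, 592 and 493 with PD0332991. The treated mean was 35.6% of the vehicle mean, the lowest share of the 10 genes (log2 fold change -1.47, SE 0.07, limma adjusted p = 0.000137). Its 95% confidence interval of -1.65 to -1.28 overlaps that of Rrm2, -1.54 to -1.32, so that their order is not settled.

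Dck, on chromosome 5, encodes deoxycytidine kinase, which phosphorylates deoxycytidine and purine deoxynucleosides and activates drugs such as cytarabine and gemcitabine. Dck intensities (1439012_a_at, the brightest) were 3222, 3460.5 and 3179 with vehicle and 2467, 2372 and 2142 with PD0332991. The treated arrays were all lower (log2 fold change -0.50, SE 0.07, limma adjusted p = 0.00529). All 3 Dck probe sets were lower without overlap, 1.38-fold to 1.46-fold, and the dimmest missed the threshold (adjusted p = 0.0532). All of them have IDs ending in _a_at, given where probes match alternative transcripts. The within-array difference between Tk1 and Dck changed by -0.97 (SD 0.095 and 0.068, n = 3 each).

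Samhd1, on chromosome 2, encodes a triphosphohydrolase that cleaves deoxynucleoside triphosphates, limits the pool outside S phase and restricts retroviruses in myeloid cells. Its brightest probe set (1434438_at) read 1866, 1672 and 1921 with vehicle and 1263, 1485 and 1590.7 with PD0332991. The groups did not overlap, but they were wide, 1820 ± 131 against 1446 ± 167 (SD, n = 3 each), and the log2 fold change of -0.33 did not pass (95% confidence interval -0.58 to -0.08, limma adjusted p = 0.0703). Over 17 alternative settings it ranged from -0.46 to -0.20, with adjusted p from 0.00835 to 0.198, and passed in 4 of them. Its 5 probe sets differed: 1 dim probe set fell 1.42-fold, the 2 brightest had -0.33 and -0.26, and the remaining 2 had -0.04 and 0.16 with overlapping groups.

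SAMHD1 is interferon-inducible in several cell types and abundant in leukocytes. On these arrays 11 of 17 interferon-stimulated genes rose, where 9.81% of all genes were called higher. The median log2 fold change of the 17 was 0.68. Usp18, which dampens interferon signalling, rose 3.16-fold and Ifit1, which binds viral RNA, 4.51-fold. The count was 7 without probe sets whose IDs end in _s_at, _x_at or _a_at. In that setting Oasl2, Irf7 and Irf9, which were among the 11, had no probe set left, nor had Mx1. There 3046 of 16591 genes were called, 45.9% of those calls higher. Of 10 leukocyte markers, 4 were called higher and 1 lower, where 9.81% and 11.2% of all genes were. Summed intensities of the 10 were 648 to 724 on vehicle and 763 to 783 on PD0332991 arrays. The part of leukocyte RNA in the Samhd1 value was not tested. The 4 became 1 without PD0332991 replicate 2 or 3, 2 without vehicle replicate 1 or 3, and 0 after spike-in centring (limma, 1 at an unadjusted p under 0.05). With any 1 array left out, 4 of these markers were higher at an unadjusted p under 0.05 (limma). Calls over all genes then numbered 2495 to 2687 in place of 3820.

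Rrm2b is a target of p53. Of 19 other p53 targets, 13 rose and 1 fell, where 9.81% of all genes were called higher and 11.2% lower. The median log2 fold change of the 19 was 0.26. Cdkn1a, which encodes the CDK inhibitor p21, rose 1.74-fold and Ccng1, a cyclin induced by p53, 1.32-fold, while Gtse1, a microtubule-associated protein that also restrains p53, fell 1.58-fold. After spike-in centring 2 of the 19 were called higher, where 1715 of 18193 genes were called, 14% of those calls higher. In the same centring of the arrays other than vehicle replicate 1, 6 of the 19 were called higher. There 1567 genes were called, 26.3% of those calls higher. Whether p53 had a part in the Rrm2b value was not tested, and Trp53 was not among the genes measured.

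**Figure D3:**
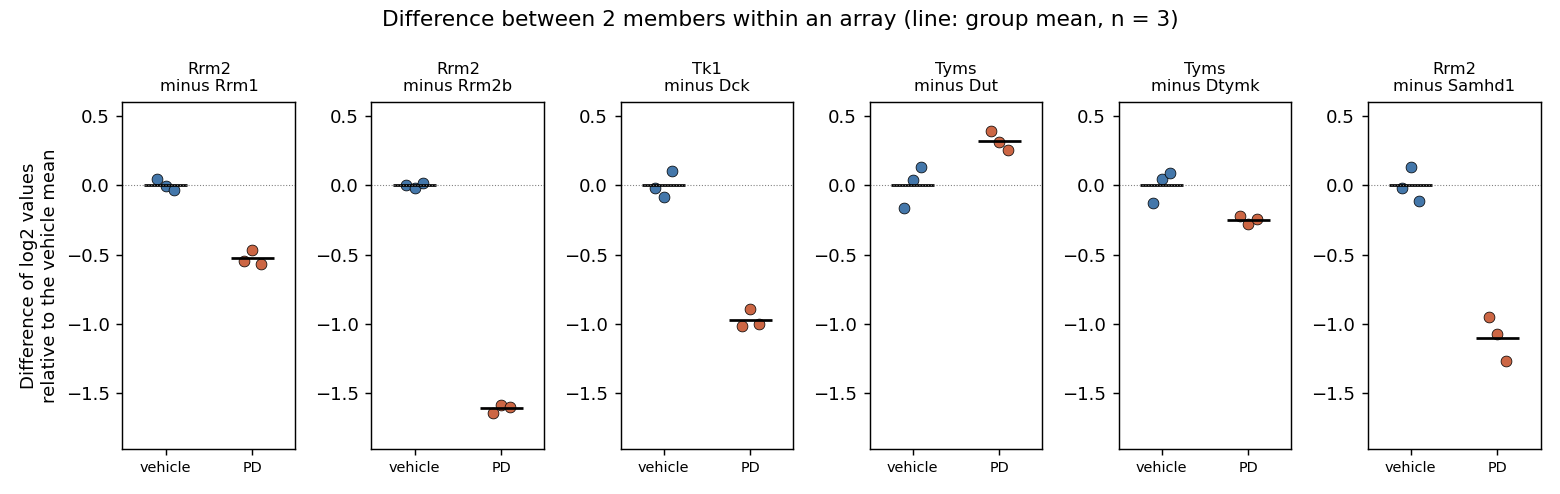
Difference of log2 values between 2 of the genes on each array, shown relative to the vehicle mean, with group means as lines (n = 3). The 3 treated arrays lie outside the vehicle range in all 6 pairs, lowest for Rrm2 minus Rrm2b at -1.61.

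Over the 6 pairs, each difference reached p = 0.1 in an exact two-sided permutation test, which is the smallest p that 3 arrays against 3 allow, and 0.1 after adjustment over the 6. None of these differences can therefore pass a threshold of 0.05, and their sizes are given against the spread between arrays. Rrm2 minus Samhd1 changed by -1.10 (SD 0.12 and 0.16, n = 3 each).

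Of 42 other nucleotide genes measured, in 4 related lists, 9 fell, 7 rose and 26 did not pass, with a median log2 fold change of 0.029, where 11.2% of all genes were called lower and 9.81% higher. The 7 became 4 without vehicle replicate 2, where 2616 of 18193 genes were called, 47.8% of those calls higher. With spike-in centring the count was 3, where 1715 genes were called, 14% of those calls higher. Other settings raised it, up to 14 with eBayes trend and robust settings, so that this count depends on the setting. Genes of thymidylate, folate and pyrimidine supply held 6 of the 9 falls among 10 measured. Umps, which makes uridylate, fell by 0.58 on the log2 scale, from 1226 ± 75.0 to 811.9 ± 24.4 (SD, n = 3 each), and Cad, the first enzyme of pyrimidine synthesis, fell 1.33-fold. Tk2, the mitochondrial thymidine kinase, rose 1.13-fold (limma adjusted p = 0.0400), and did not pass without vehicle replicate 1, 2 or 3, without PD0332991 replicate 1 or 2, and with spike-in centring. 

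Among 13 other nucleoside and nucleotide kinases, 4 rose and 1 fell, where 9.81% of all genes were called higher and 11.2% lower. Ak1, an adenylate kinase, rose 1.88-fold, from 780.1 ± 52.5 to 1482 ± 151 (SD, n = 3 each), while its other probe set was dim and not called. Cmpk2, a mitochondrial nucleotide kinase that interferon induces, rose 1.70-fold on one probe set and had -0.30 on the other, so that its call was lost with their mean. Nme6, of the nucleoside diphosphate kinase family, fell 1.22-fold. The rising count was 2 without vehicle replicate 2, where 2616 of 18193 genes were called, 47.8% of those calls higher. It was also 2 with spike-in centring, where 1715 genes were called, 14% of those calls higher.

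Of 13 genes of nucleotide breakdown and pool cleaning, 2 rose and 2 fell, near the shares over all genes of 9.81% and 11.2%. Dctpp1, which removes dCTP and modified deoxycytidine triphosphates, fell 1.57-fold, from 1407 ± 8.92 to 892.5 ± 24.5 (SD, n = 3 each). Nt5e, the cell-surface nucleotidase CD73, rose 1.81-fold and the cytosolic deoxynucleotidase gene Nt5c 1.29-fold, a call that was lost with spike-in centring. Ada, adenosine deaminase, fell 1.34-fold (limma adjusted p = 0.0266), and did not pass with any array other than PD0332991 replicate 2 removed. Of 6 nucleoside and nucleotide transporter genes, 0 passed (limma), with 2 higher and 1 lower at an unadjusted p under 0.05.

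**Figure D4:**
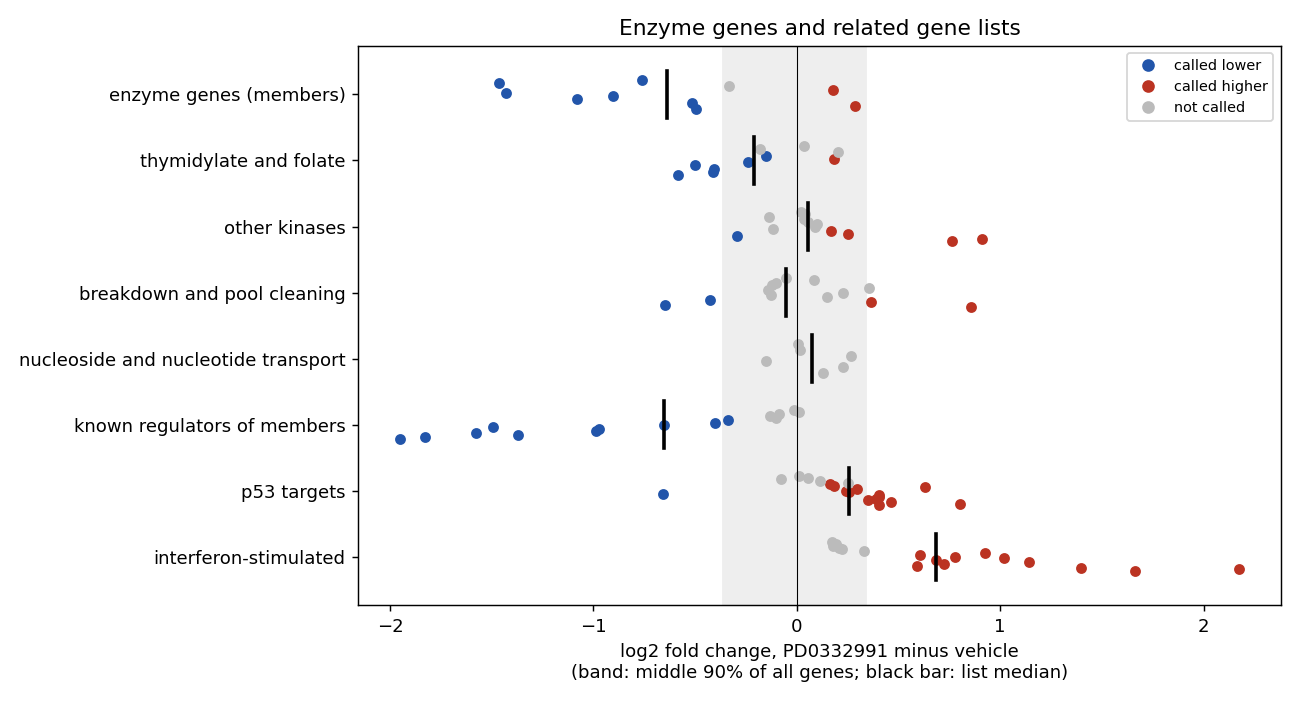
Log2 fold change (PD0332991 minus vehicle) of each measured gene in the 10-gene set and in 7 related lists, coloured by call, with the list median as a black bar and the middle 90% of all genes as a grey band from -0.36 to 0.34. Of the 10 enzyme genes, 7 lie to the left of the band and none to its right.

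Genes known to control these enzymes fell in 10 of 15 measured cases, where 11.2% of all genes were called lower. The median log2 fold change of the 15 was -0.66. E2f7 and E2f8, repressors of E2F target genes, fell 3.86-fold and 3.54-fold. Ccnf, which encodes the cyclin that targets the RRM2 protein for destruction, and Fzr1, the APC/C activator that acts on TK1 and RRM2 proteins, had log2 fold changes of -1.49 and -0.40. On their brightest probe sets, E2f1, E2f2 and E2f3 had log2 fold changes between -0.09 and 0.01, none of which passed (limma adjusted p = 0.456 to 0.938). With the mean of each gene's probe sets, 11 of the 15 genes were called lower in place of 10.

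The genes whose log2 values over the 6 arrays lay nearest to those of Rrm2, after centring each gene on its mean, were Hmgb2, Pbk, Cdc25b, Cenpk and Lig1. They were at Euclidean distances of 0.046 to 0.096, where the median over 8883 genes above the median level was 1.75. Their log2 fold changes lay between -1.47 and -1.42, near the -1.43 of Rrm2. Choosing genes by this distance fixes that likeness in advance. The median distance reflects the fall of Rrm2 itself, since an unchanged gene lies about that far from it. Lig1, the ligase that joins Okazaki fragments, went from 1507 ± 29.0 to 533.4 ± 16.9 (SD, n = 3 each).

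**Figure D5:**
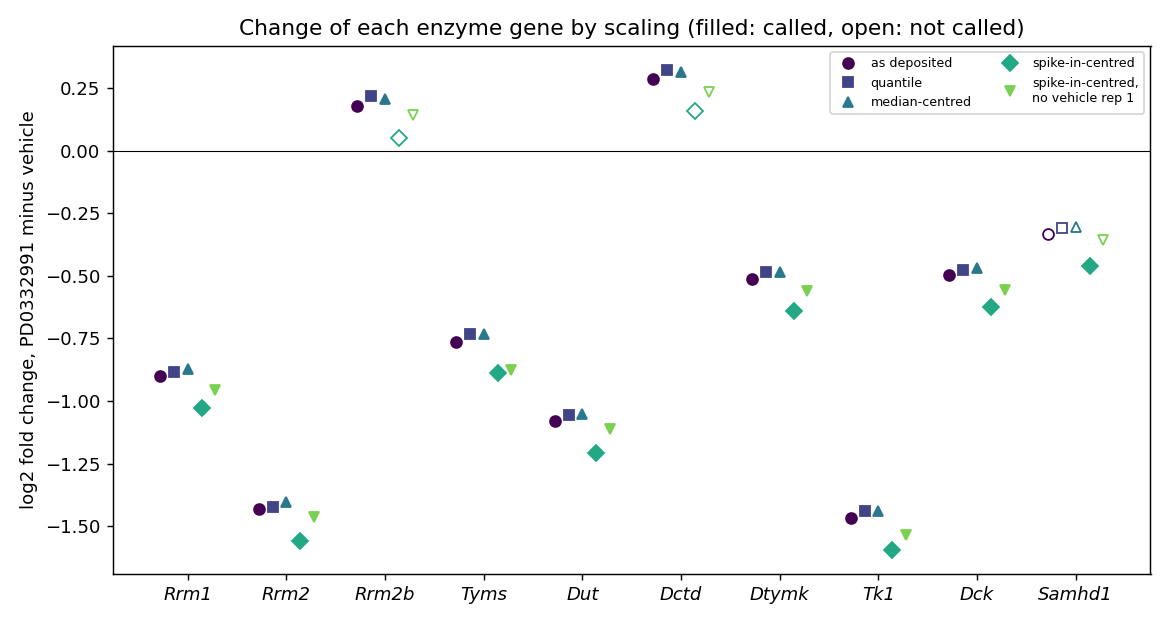
Change of each of the 10 genes (log2, PD0332991 minus vehicle) with the values as deposited and with 4 other scalings of the arrays, filled where called and open where not. The 7 genes called lower stayed below 0 and called under each of these scalings, while Rrm2b and Dctd stayed above 0 but were not called after spike-in centring.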

How the data were processed

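V720 cells gave 6 total RNA samples, labelled by the standard Affymetrix procedure per the labels' protocols. The authors deposited 1 linear intensity per probe set and array; the summarisation method and scaling are not given in the sources used here, and no further normalization was applied. Samples were grouped by their titles. Of 45101 probe sets, the 64 controls, 9160 without a gene symbol and 932 with several were left out. A gene was represented by its probe set with the highest mean log2 value. Values were transformed to log2(intensity + 16) and compared with lmFit and eBayes of limma 3.58.1 (R 4.3.3) and p-values were adjusted by Benjamini and Hochberg over the 18193 genes (or 34945 probe sets), with a threshold of 0.05. The procedure was tested on simulated data. Pairs of genes were compared within arrays by an exact permutation test. Tables and plots used Python 3.11.15, pandas 2.3.3 and matplotlib 3.10.9.

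Genes named from the related lists were, per list, at most 2 higher and 2 lower with the smallest p; other list genes named (Ccnf, Fzr1, E2f1, E2f2 and E2f3) were chosen after their values were seen. The genes, lists, tests and alternatives were chosen with earlier results of these data known. Chromosomes come from RefSeq (GRCm38.p6), to which all 10 genes matched by gene number. The alternatives were a replicate block, 3 scalings, 2 pseudocounts, a filter on dim genes, other treatment of a gene's probe sets, another eBayes setting and each array left out; spike-in centring without vehicle replicate 1 was added after seeing the data, because its spike-in mean of 9.74 (log2) lay below the 9.94 to 10.05 of the other arrays.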

Additional observations from a re-analysis of the deposited data

How the results depend on the processing

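The 7 genes called lower kept their direction and call under every alternative in which the gene was tested. Tyms was not tested with the filter on dim genes and Dck not without probe sets of IDs ending in _s_at, _x_at or _a_at, which left 20 of the 29 probe sets, 10 of them called lower in place of 16. With a replicate block, 2047 genes were called in place of 3820, 1 of the 10 genes higher in place of 2 and 4 pathway genes higher in place of 7, and Rrm2b (0.18) had adjusted p = 0.0685, while Nme6, Tk2 and Ada did not pass; same-numbered arrays deviated with correlations of -0.051 to 0.050, so the numbers do not pair the arrays. Spike-in centring gave 1715 called genes, 0 of the 10 genes higher (limma, 0 also at an unadjusted p under 0.05), 3 pathway genes higher, and log2 fold changes of 0.16 for Dctd, 0.052 for Rrm2b and -0.46 for Samhd1, the last now called. Without vehicle replicate 1 as well, an alternative chosen after seeing the data, these counts were 1567, 0 and 3, with 0.24 for Dctd and 0.14 for Rrm2b. Of all calls, 46.7% were higher as deposited, 56.9% with median centring, 56.2% with quantile normalization, 14% with spike-in centring and 26.3% in the same centring of 5 arrays. The pathway genes called higher were 11 with quantile normalization, 12 with a pseudocount of 64, 13 with the filter on dim genes and 14 with eBayes trend and robust settings, and those called lower were 14 with each of the last 2, against 9. Samhd1 was also called with a pseudocount of 64 (-0.32), with the filter (-0.33) and with eBayes trend and robust settings (-0.33). Leaving out 1 array gave 2495 to 2687 called genes, 0 to 1 of the 10 genes higher, 4 to 6 pathway genes higher, 0.26 to 0.33 for Dctd and 0.15 to 0.20 for Rrm2b. The difference of Tyms and Dtymk turned to 0.00030 with the mean of probe sets, where low-signal Tyms probe sets enter. The cause of the other changes was not tested. Signal limits the Tyms values, whose own probe sets were dim.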
